A study of Mus musculus with 16 samples.

Results

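The 47 genes described here encode the machinery that copies DNA in S phase, from the proteins that license replication origins to those that load histones behind the fork. They were chosen by name, not by measured values, though with earlier results of these data known, and were sorted into 10 functional groups. They make up 47 of the 51912 genes in the table, and all 47 passed the filter on low counts, as did 20159 genes in all. RNA was sequenced from mouse ventricles in 4 groups of 4 libraries each: wild type after sham surgery (WT SH), *Lrrc10*-/- after sham surgery (KO SH), wild type after myocardial infarction (WT MI) and *Lrrc10*-/- after myocardial infarction (KO MI). *Lrrc10* encodes a leucine-rich repeat protein of cardiomyocytes, and the question of the design was how its loss alters the response of the neonatal heart to injury. All mice were operated on at postnatal day 1, and in MI the left anterior descending artery was tied, whereas in sham mice the chest was opened and closed with the heart neither exposed nor tied. The whole ventricles, with the tissue above and below the ligation, were taken 7 days later. The wild type mice were C57BL/6J animals from a supplier and the knockout line was made on a C57BL/6 background; the deletion is not limited to a cell type, and shared litters are not described. Because the whole tissue was sequenced, fewer cells that copy DNA and less of a transcript per cell cannot be told apart.

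Replication begins when the origin recognition complex, CDC6 and CDT1 load the MCM ring onto DNA. MCM10, CDC45 and the GINS complex turn the ring into an active helicase, primase and DNA polymerase alpha lay down primers, and polymerases delta and epsilon extend them on the PCNA clamp. In the mouse heart most cardiomyocytes leave the cell cycle in the days after birth, many after copying their DNA without completing division, while fibroblasts, endothelial cells and blood cells go on dividing. E2F transcription factors drive many replication genes at entry into S phase.

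The promoter stretches that carry E2F-type letters are shown because many replication genes are textbook E2F targets. In the knockout many of the 47 were higher post-MI than post-sham, and whether E2F factors played a part was not tested. Promoters were read as the 300 bases from 250 before to 50 after the annotated start (GRCm39, GENCODE M39), and searched on both strands for TTTCCCGC, TTTCGCGC, TTTGCCGC or TTTGGCGC, which can overlap on opposite strands. At least 1 of these was present in 13 of the 47 replication promoters (27.7%), against 532 of 14590 promoters of tested protein-coding genes (3.65%). The 30 bases around a match are printed for 8 genes, 5′ to 3′ along the gene's strand, with the matched letters in capitals.
*Mcm3*: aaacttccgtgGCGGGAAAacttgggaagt
*Mcm5*: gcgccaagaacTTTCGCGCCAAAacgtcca
*Mcm6*: tggcgtatgctTTTGGCGCGAAAagtgcgt
*Cdc6*: gaaggctgaagtagagcggcTTTGGCGCga
*Pole*: gagagcacgtggagagcGCGCCAAAttctc
*Orc1*: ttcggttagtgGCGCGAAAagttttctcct
*Gins1*: ggttgagcctaTTTGGCGCCAAAgcgagga
*Rfc3*: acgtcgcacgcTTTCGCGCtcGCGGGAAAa
These windows lie at chr1:20890499-20890528 on the minus strand for *Mcm3*, chr8:75835973-75836002 (plus) for *Mcm5*, chr1:128287534-128287563 (minus) for *Mcm6*, chr11:98798647-98798676 (plus) for *Cdc6* and chr5:110434192-110434221 (plus) for *Pole*. They lie at chr4:108436613-108436642 (plus) for *Orc1*, chr2:150751494-150751523 (plus) for *Gins1* and chr5:151574665-151574694 (minus) for *Rfc3*. In *Mcm5*, *Mcm6* and *Gins1* matches on both strands overlap in a run of 12 letters, and in *Rfc3* a second match follows the first. The first 5 genes printed had an adjusted p under 0.1 in KO MI against KO SH, and the last 3 did not. Of the 26 replication genes with an adjusted p under 0.1 in that comparison, 9 carried a match, as did 4 of the other 21, so the letters were found in both sets. The other 5 genes with a match were *Mcm4*, *Cdt1*, *Pola1*, *Pole2* and *Tipin*. Another promoter element, CCAAT on either strand, was in 55.3% of replication promoters and 39.1% of all, and the CHR letters TTTGAA, known from genes of mitosis, in 6.38% and 13.9%. Median GC content was 55.3% in the replication promoters and 57.7% in all.

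The libraries held 33783874 to 57470159 counts (median 45092798), of which 38.1% to 47.8% were mitochondrial, and the lowest count of a replication gene in a library was 46 (*Orc1*) and the highest 3732 (*Rrm1*). *Lrrc10* had 0 counts in all 8 knockout libraries and 1075 to 1850 in the wild type libraries, as labelled. Although the labels describe sex-balanced groups, all 4 WT SH libraries had low *Xist* and expressed Y-linked genes, as male tissue does, whereas each other group held 2 libraries of each kind (*Xist* 919 to 985 CPM, counts scaled to the size of the library, in 6 libraries and 6.18 to 23.4 in the other 10). Comparisons with WT SH therefore carry this difference in sex, and values without the 6 libraries are given where they change a count. Cardiomyocyte markers were abundant throughout (summed CPM of 8 genes 27113 to 41793). Skeletal muscle markers summed to 58.8 CPM in KO MI 2 and 84.8 CPM in KO MI 7 and to at most 7.94 CPM elsewhere, so these libraries are named beside the results that rest on them.

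Scaled by exon length and expressed as a share of all non-mitochondrial transcripts in the unit of TPM, the mean level over the 16 libraries ran from 2.46 for *Orc1*, which encodes the largest subunit of the origin recognition complex, to 134 for *Pcna*, the sliding clamp. The next levels below *Pcna* were 54.5 for *Rrm2*, 53.5 for *Mcm7* and 49.2 for *Mcm4*, and those next above *Orc1* were 3.96 for *Pole2* and 5.14 for *Chaf1b*. The replication genes varied together from library to library. Each gene's log2 level had a Pearson correlation with the median of the other 46 whose median was 0.74 over the 16 libraries (lowest -0.10 for *Rpa1*, highest 0.93 for *Pcna*), with 36 of 47 above 0.5. Within groups, after subtraction of the group means, the median was 0.60 and 32 of 47 were above 0.5. The libraries share the depth and the cell makeup of each heart, so these are descriptions of how the libraries differ.

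**Figure D1:**
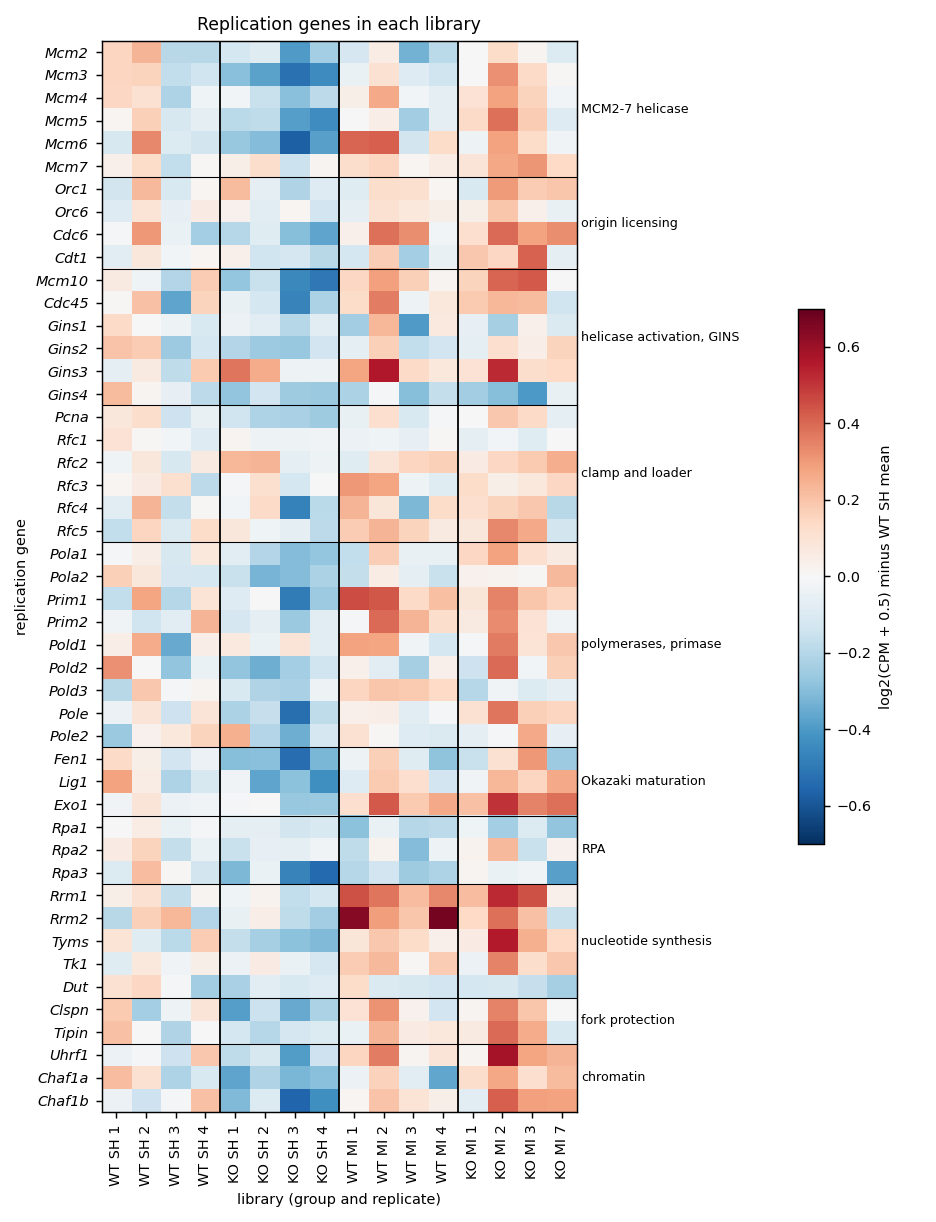
Level of each of the 47 replication genes (rows, ordered by functional group) in each of the 16 libraries (columns), as log2(CPM + 0.5) minus the mean of the 4 WT SH libraries. Red is above and blue below that mean; the KO SH columns are mostly blue and KO MI 2 is red in most rows.

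The clearest difference in the replication genes was between KO MI and KO SH. Of 47 genes, 8 rose post-MI in the knockout and none fell, under the rule of an adjusted p below 0.1 (edgeR quasi-likelihood test, Benjamini-Hochberg over all 20159 genes) with a log2 difference of 0.5 or more, where 5.31% of all genes rose and 7.42% changed in either direction. The 8 were *Chaf1b*, *Mcm10*, *Cdc6*, *Tyms*, *Exo1*, *Mcm3*, *Uhrf1* and *Chaf1a*, with log2 fold changes from 0.50 to 0.69. At the adjusted p alone 26 of 47 passed, all higher, against 10.2% of all genes. In all, 43 of 47 lay above 0, with a median log2 fold change of 0.29 where that of all genes was -0.01. In 21 of 47 genes all 4 KO MI libraries were above all 4 KO SH libraries, against 7.68% of all genes.

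*Chaf1b*, *Mcm10* and *Cdc6* were called in all 16 fits that left out a single library. Without KO MI 2 those 3 alone remained called, and without KO SH 3 *Cdc6*, *Chaf1b*, *Mcm10*, *Mcm3* and *Tyms*. Without KO SH 2, 12 genes were called: the 8 and *Mcm5*, *Mcm6*, *Pole* and *Prim1*. Without both KO MI 2 and KO MI 7, *Chaf1b* and *Mcm10* were called, and the median of the 47 was 0.28. Without the 6 high-*Xist* libraries 8 were called again, 6 of them the same, with *Lig1* and *Pole* in place of *Cdc6* and *Chaf1a*. The shares of all genes given above belong to the fit to all libraries and can differ in these other fits. These counts therefore show which calls held, and are not by themselves a result about the replication genes. The mitochondrial share of counts was 45.0%, 38.1%, 42.2% and 41.4% in KO MI 1, 2, 3 and 7 and 46.8% to 47.8% in KO SH, without overlap, and the same 8 were called with library sizes from nuclear counts alone. Just outside the fold limit stood *Mcm6* (0.49), *Pole* (0.48) and *Mcm5* (0.47), and just inside it *Chaf1a* (0.50) and *Uhrf1* (0.51).

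In the wild type, no replication gene was called between WT MI and WT SH by edgeR, where 2.78% of all genes were, nor by DESeq2. At an unadjusted p under 0.05 there were 6 of 47, against 16.5% of all genes. At the adjusted p alone 2 passed, *Rrm1* and *Rrm2*, both higher, against 3.11% of all genes that were higher. Of the 47 log2 values, 27 were above 0, and their median was 0.05. All WT MI libraries were above all WT SH libraries in 2 genes (*Exo1* and *Rrm1*; 6.16% of all genes) and below them in 2 (*Rpa1* and *Rpa3*; 5.94% of all genes).

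Without infarction, the replication genes in KO SH lay mostly below those in WT SH. No gene was called by edgeR or by DESeq2, where edgeR called 5.01% of all genes, but 44 of 47 were below 0 with a median log2 fold change of -0.17 (all genes 0.01). The adjusted p alone was passed by 11 of 47, all lower (7.22% of all genes were lower by that rule), and an unadjusted p under 0.05 by 19 (22.8% of all genes). All KO SH libraries were below all WT SH libraries in *Mcm3*, *Mcm5*, *Mcm6*, *Pola2*, *Pole*, *Fen1* and *Rpa1*, 7 of 47 against 10.2% of all genes. This comparison carries the difference in sex between the groups. Without the 6 high-*Xist* libraries the median was -0.24, with *Chaf1b* called lower, and with log2 *Xist* as a covariate it was -0.26, with *Rpa3* called lower.

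Post-MI, the knockout and the wild type were close. Neither edgeR nor DESeq2 called a replication gene in KO MI against WT MI (edgeR called 1.73% of all genes), and 7 of 47 had an unadjusted p under 0.05 (12.4% of all genes). Of the 47 log2 values, 33 were above 0, and their median was 0.08. Only *Pold3*, a subunit of polymerase delta, passed the adjusted p, and it was lower (2.04% of all genes were). All KO MI libraries were above all WT MI libraries in *Pole* (2.74% of all genes) and below them in *Pold3* (3.73% of all genes).

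Whether MI acted differently in the knockout was tested as the interaction of genotype and surgery. Its log2 values were above 0 in 42 of 47 genes, with a median of 0.24 (all genes 0.00), and 19 of 47 had an unadjusted p under 0.05 against 13.6% of all genes. No replication gene passed the adjusted p in edgeR, nor did more than 5 of all genes (0.0248%). The lowest adjusted p was that of *Mcm3*, 0.146 by edgeR. DESeq2 called 3 (*Mcm3*, *Mcm5* and *Chaf1a*), where it called 1.43% of all genes in either direction. edgeR called 7 without KO MI 7 (4.20% of all genes) and 2 without WT SH 4 (0.854% of all genes). In the edgeR fit to all libraries the responses of the genotypes were therefore not shown to differ in any replication gene. The KO SH libraries enter both KO SH against WT SH and KO MI against KO SH, so the low values of the first and the high values of the second are not independent of each other.

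**Figure D2:**
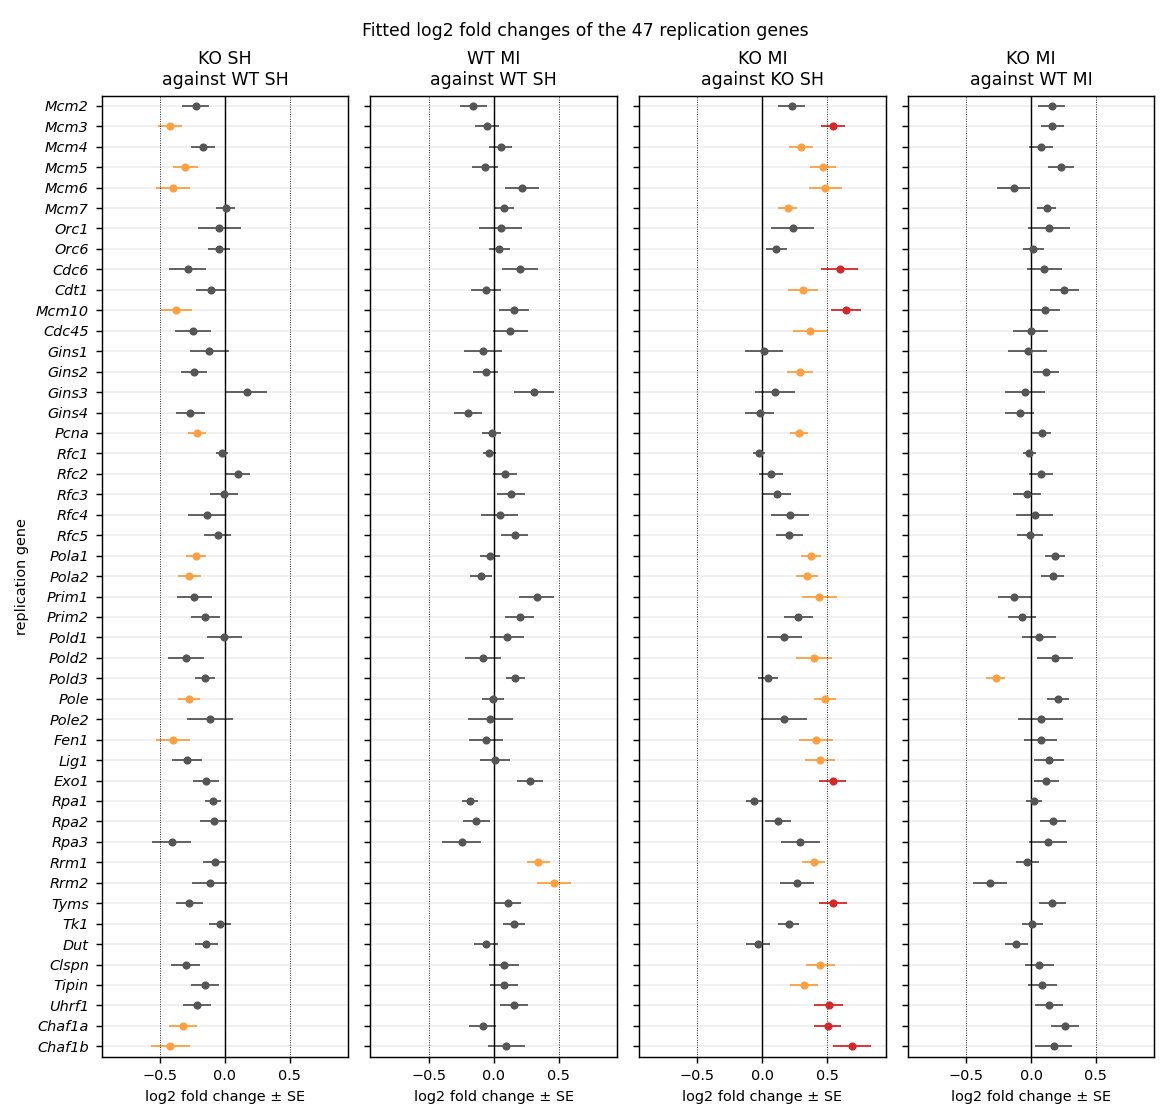
Fitted log2 fold change of each of the 47 replication genes (points) with its standard error (bars) in 4 comparisons. Red marks the 8 genes that passed an adjusted p under 0.1 and the fold limit of 0.5 (dotted lines), orange those that passed the adjusted p alone; points lie mostly left of 0 in KO SH against WT SH and right of 0 in KO MI against KO SH.

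Values per library are given below in CPM, in the order of replicates 1 to 4, and 1, 2, 3 and 7 in KO MI, with group values as mean ± SD (n = 4) and fold changes as log2 ± SE of the edgeR fit. Origin licensing was represented by *Orc1*, *Orc6*, *Cdc6* and *Cdt1*. *Cdc6* (ENSMUSG00000017499, chr11:98798507-98814766), which brings the MCM ring to the origin, had 3.25, 4.17, 3.17 and 2.71 in WT SH, 2.80, 3.08, 2.59 and 2.44 in KO SH, 3.38, 4.45, 4.25 and 3.24 in WT MI, and 3.62, 4.49, 4.11 and 4.25 in KO MI. The KO MI libraries were all above the KO SH ones and overlapped those of WT MI. *Cdc6* rose from 2.73 ± 0.277 in KO SH to 4.12 ± 0.368 in KO MI (0.60 ± 0.14, adjusted p 0.0120 by edgeR), and its difference in the wild type was 0.21 ± 0.14. *Orc6*, a subunit of the origin recognition complex, had 5.75, 6.60, 5.89 and 6.43 in WT SH, 6.29, 5.81, 6.22 and 5.56 in KO SH, 5.84, 6.67, 6.52 and 6.36 in WT MI, and 6.36, 7.11, 6.32 and 5.91 in KO MI. All 4 groups of *Orc6* overlapped, and its log2 fold changes lay between -0.05 and 0.11. *Cdt1*, the partner of *Cdc6* in loading, was 0.31 ± 0.11 higher in KO MI than in KO SH (adjusted p 0.0875, edgeR) without reaching the fold limit, and *Orc1* was 0.23 higher with an adjusted p of 0.403.

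The MCM ring, the motor of the helicase, has 6 subunits, all 6 of which were measured. *Mcm3* (ENSMUSG00000041859, chr1:20870791-20890536) had 26.5, 26.6, 21.1 and 21.5 CPM in WT SH, 19.3, 18.2, 16.4 and 17.4 in KO SH, 23.0, 25.6, 22.3 and 21.5 in WT MI, and 23.8, 29.7, 26.1 and 23.9 in KO MI. The KO SH libraries stood below those of every other group. *Mcm3* rose from 17.8 ± 1.22 in KO SH to 25.9 ± 2.79 in KO MI (0.54 ± 0.09, adjusted p 0.00213, edgeR). In KO SH against WT SH it was at -0.43 ± 0.09 (adjusted p 0.0103, edgeR), short of the fold limit, and in WT MI against WT SH at -0.05 ± 0.09. *Mcm5* and *Mcm6* were also lowest on average in KO SH, with log2 values of -0.30 and -0.40 against WT SH and 0.47 and 0.49 for KO MI against KO SH. *Mcm7* differed less: it had 31.3, 33.4, 27.1 and 30.7 in WT SH, 31.4, 33.3, 27.4 and 31.0 in KO SH, 33.3, 33.9, 30.8 and 31.7 in WT MI, and 32.5, 37.0, 38.0 and 33.6 in KO MI. Its KO SH and WT SH values overlapped throughout (0.01 ± 0.07), and KO MI was 0.20 ± 0.07 above KO SH. Over the 6 subunits the median was 0.38 in KO MI against KO SH, -0.26 in KO SH against WT SH and 0.00 in WT MI against WT SH.

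Among the 6 helicase activators, *Mcm10* stood apart from the GINS subunits. *Mcm10* (ENSMUSG00000026669, chr2:4994516-5017629), needed for the ring to open the origin, had 7.79, 7.27, 6.38 and 8.46 CPM in WT SH, 6.09, 6.62, 5.30 and 5.11 in KO SH, 8.28, 9.17, 8.41 and 7.56 in WT MI, and 8.34, 10.02, 10.2 and 7.41 in KO MI. All KO MI values were above all KO SH values, and the lowest of them, in KO MI 7, lay within the range of WT SH. *Mcm10* rose from 5.78 ± 0.699 to 8.99 ± 1.34 (0.64 ± 0.12, adjusted p 0.00270, edgeR). *Gins2*, a GINS subunit, had 18.2, 17.9, 13.2 and 14.5 in WT SH, 13.6, 13.2, 13.0 and 14.3 in KO SH, 15.03, 17.8, 13.9 and 14.3 in WT MI, and 15.04, 17.1, 16.3 and 17.6 in KO MI. Its KO MI libraries were above those of KO SH (0.29 ± 0.10), and the difference passed the adjusted p but not the fold limit. *Gins1*, another subunit, had 2.86, 2.57, 2.49 and 2.35 in WT SH, 2.48, 2.40, 2.17 and 2.41 in KO SH, 2.08, 3.10, 1.82 and 2.72 in WT MI, and 2.44, 2.11, 2.64 and 2.35 in KO MI. *Gins4*, also a GINS subunit, had 5.94, 5.11, 4.81 and 4.38 in WT SH, 4.06, 4.54, 4.15 and 4.12 in KO SH, 4.25, 4.99, 4.003 and 4.43 in WT MI, and 4.17, 3.996, 3.68 and 4.84 in KO MI. Both overlapped between KO MI and KO SH, with log2 values of 0.01 ± 0.15 and -0.02 ± 0.11. *Cdc45*, the helicase cofactor, was 0.37 ± 0.14 higher in KO MI than in KO SH, and *Gins3* 0.10.

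The 9 genes of the polymerases and primase were all above 0 in KO MI against KO SH, with a median of 0.34 and none at the fold limit. *Pole*, the catalytic subunit of polymerase epsilon on the leading strand, had 18.1, 19.9, 16.8 and 19.8 CPM in WT SH, 15.9, 16.6, 12.8 and 16.4 in KO SH, 19.1, 19.2, 17.6 and 18.5 in WT MI, and 20.1, 24.3, 21.0 and 20.7 in KO MI. Its KO MI values were the highest and its KO SH values the lowest, and KO MI did not overlap with any other group. *Pole* was 0.48 ± 0.09 higher in KO MI than in KO SH (adjusted p 0.00249, edgeR). *Pola1*, the catalytic subunit of polymerase alpha, which extends primers, had 21.2, 22.0, 19.7 and 22.4 in WT SH, 20.1, 18.4, 17.2 and 17.5 in KO SH, 18.8, 24.0, 20.5 and 20.5 in WT MI, and 23.6, 26.0, 23.1 and 22.3 in KO MI. KO MI was above KO SH in every library (0.38 ± 0.08). *Prim1*, the catalytic subunit of primase, had 4.56, 6.42, 4.46 and 5.59 in WT SH, 4.85, 5.19, 3.57 and 4.28 in KO SH, 7.32, 7.21, 5.76 and 6.10 in WT MI, and 5.55, 6.75, 6.01 and 5.83 in KO MI. It was the gene of this group with the largest log2 value in the wild type, 0.33 ± 0.13 with an adjusted p of 0.206 (edgeR), and 0.44 ± 0.13 in the knockout. *Pold3* had 15.8, 16.3, 16.2 and 15.7 in WT MI and 12.3, 13.9, 13.2 and 13.5 in KO MI. The ranges did not overlap, and KO MI was 0.27 lower on the log2 scale than WT MI (-0.27 ± 0.08, adjusted p 0.0794, edgeR).

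The clamp and its loader, a ring of RFC subunits that opens PCNA around the primer, varied less. *Pcna* had 37.4, 38.6, 32.0 and 34.1 CPM in WT SH, 32.1, 30.5, 30.2 and 29.7 in KO SH, 34.1, 38.5, 32.8 and 35.1 in WT MI, and 35.4, 40.5, 39.01 and 33.8 in KO MI. KO MI lay above KO SH in all libraries (0.28 ± 0.07, adjusted p 0.0177, edgeR), and WT MI and WT SH overlapped (-0.02 ± 0.07). *Rfc1*, the large subunit of the loader, had with *Gins1* and *Gins4* the 3 smallest absolute log2 values of the 47 in KO MI against KO SH. It had 38.8, 36.3, 35.5 and 33.9 in WT SH, 36.5, 35.2, 35.2 and 35.4 in KO SH, 35.04, 35.3, 34.7 and 36.2 in WT MI, and 34.3, 35.6, 34.0 and 36.1 in KO MI. Its group means were 34.995 to 36.1, with log2 values of -0.01 to -0.03 and SEs of 0.05 in the 4 comparisons, and no library stood apart. The other 4 loader genes had log2 values of 0.07 to 0.22 in KO MI against KO SH with no adjusted p under 0.1.

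In Okazaki fragment maturation, *Fen1* trims the flap, *Lig1* seals the nick and *Exo1* is an exonuclease also used in repair. *Exo1* (ENSMUSG00000039748, chr1:175708143-175741055) had 4.81, 5.24, 4.75 and 4.81 CPM in WT SH, 4.85, 4.89, 3.98 and 4.01 in KO SH, 5.36, 6.78, 5.62 and 5.99 in WT MI, and 5.71, 7.17, 6.36 and 6.56 in KO MI. Both MI groups were above both sham groups in every library. *Exo1* rose from 4.43 ± 0.502 to 6.45 ± 0.599 in the knockout (0.54 ± 0.10, adjusted p 0.00318, edgeR), and stood at 0.28 ± 0.10 in the wild type (adjusted p 0.159, same test). *Lig1* had 17.7, 15.1, 12.4 and 13.3 in WT SH, 14.2, 11.1, 11.8 and 10.6 in KO SH, 13.6, 16.5, 15.8 and 13.2 in WT MI, and 14.3, 17.1, 16.1 and 17.6 in KO MI. KO MI was above KO SH by 0.44 ± 0.11, with the lowest KO MI library just above the highest of KO SH, and the wild type groups overlapped (0.01 ± 0.11). *Fen1* was 0.41 ± 0.13 higher in KO MI than in KO SH and passed the adjusted p alone.

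The 3 single-strand binding genes all had log2 values below 0 in WT MI against WT SH, as did 20 of the 47 in all. *Rpa1*, the largest subunit of the complex that coats unwound DNA, had 31.1, 32.3, 30.1 and 30.9 CPM in WT SH, 29.6, 29.7, 28.4 and 28.8 in KO SH, 25.4, 30.1, 27.0 and 27.3 in WT MI, and 30.4, 26.3, 29.1 and 25.6 in KO MI. WT SH was the highest group, and its lowest library only just passed the highest of WT MI. The log2 value of *Rpa1* was -0.18 ± 0.06 in WT MI against WT SH (adjusted p 0.138, edgeR) and -0.07 ± 0.06 in KO MI against KO SH. *Rpa3* stood at -0.25 in WT MI against WT SH and *Rpa2* at -0.13, and none of the 3 passed the adjusted p in the fit to all libraries; *Rpa3* was called in some other settings, lower in KO SH against WT SH without KO SH 2 and higher in the interaction without KO MI 7.

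In nucleotide supply the mean library median was 0.18 in WT MI and 0.17 in KO MI, relative to WT SH on the log2 scale. *Rrm1*, the large subunit of ribonucleotide reductase, had 52.4, 54.8, 45.4 and 51.6 CPM in WT SH, 49.8, 51.7, 45.1 and 46.8 in KO SH, 69.6, 66.1, 59.2 and 64.4 in WT MI, and 59.2, 73.5, 69.4 and 52.1 in KO MI. All WT MI libraries were above all sham libraries, and KO MI 7 was only just above the highest of KO SH. *Rrm1* was higher by 0.34 ± 0.09 in the wild type (adjusted p 0.0458) and by 0.40 ± 0.09 in the knockout (adjusted p 0.0103), both by edgeR and both under the fold limit. *Rrm2*, the small subunit made in S phase, had 15.2, 19.6, 20.6 and 15.1 in WT SH, 16.9, 18.1, 15.4 and 14.7 in KO SH, 27.5, 21.5, 20.1 and 28.1 in WT MI, and 19.3, 23.0, 20.2 and 15.7 in KO MI. WT MI 1 and WT MI 4 were the highest, and WT MI 3 lay below WT SH 3. The difference of *Rrm2* in the wild type was 0.46 ± 0.13 (adjusted p 0.0678, edgeR), and it became a call without WT SH 2, WT SH 3, WT MI 2 or WT MI 3. Its interaction was -0.20 ± 0.19. *Tyms* (ENSMUSG00000025747, chr5:30263198-30278633), thymidylate synthase, had 8.88, 7.81, 7.21 and 9.46 in WT SH, 7.33, 6.99, 6.70 and 6.61 in KO SH, 8.81, 9.53, 9.13 and 8.51 in WT MI, and 8.66, 12.4, 9.96 and 9.20 in KO MI. KO MI 2 was the highest library and KO SH the lowest group without overlap with KO MI. *Tyms* rose from 6.91 ± 0.325 to 10.1 ± 1.66 in the knockout (0.54 ± 0.11, adjusted p 0.00393, edgeR). *Tk1* and *Dut*, of the thymidine salvage and dUTP removal steps, stood at 0.20 and -0.03.

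*Clspn* encodes claspin, which with *Tipin* keeps the fork moving and signals when it stalls. *Clspn* had 11.3, 8.31, 9.64 and 10.6 CPM in WT SH, 7.46, 8.88, 7.64 and 8.42 in KO SH, 10.7, 12.4, 10.1 and 8.97 in WT MI, and 10.04, 12.7, 11.4 and 9.90 in KO MI. KO MI was above KO SH in all libraries (0.45 ± 0.11), and *Tipin* was 0.32 ± 0.11 higher; both passed the adjusted p but not the fold limit.

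The 3 genes that couple replication to chromatin were the only functional group with every member called, with a median of 0.51 in KO MI against KO SH. *Chaf1b* (ENSMUSG00000022945, chr16:93680768-93703003), a subunit of the CAF-1 histone chaperone, had 2.65, 2.43, 2.72 and 3.24 CPM in WT SH, 2.12, 2.54, 1.71 and 1.91 in KO SH, 2.77, 3.23, 2.97 and 2.85 in WT MI, and 2.58, 3.84, 3.47 and 3.45 in KO MI. The KO MI libraries were above KO SH, but KO MI 1 exceeded KO SH 2 only slightly. *Chaf1b* rose from 2.07 ± 0.354 to 3.34 ± 0.533 (0.69 ± 0.14, adjusted p 0.00643, edgeR), the largest value of the 47. *Chaf1a* (ENSMUSG00000002835, chr17:56347303-56379289), its partner, rose from 8.96 ± 0.447 to 12.7 ± 0.685 (0.50 ± 0.11, adjusted p 0.00683, same test). *Uhrf1* (ENSMUSG00000001228, chr17:56610275-56630489), which brings DNA methyltransferase to newly copied DNA, had 18.9, 19.3, 17.5 and 22.2 in WT SH, 17.1, 17.9, 14.7 and 17.5 in KO SH, 21.6, 25.0, 19.7 and 20.7 in WT MI, and 19.6, 29.3, 23.6 and 23.0 in KO MI. KO MI 2 was the highest, and all 4 were above KO SH. *Uhrf1* rose from 16.8 ± 1.46 to 23.9 ± 4.02 (0.51 ± 0.11, adjusted p 0.00729, edgeR). Without KO MI 2 or without KO SH 3 *Chaf1b* alone of the 3 was called, and *Chaf1a* also lost its call without KO SH 1 or KO MI 7.

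**Figure D3:**
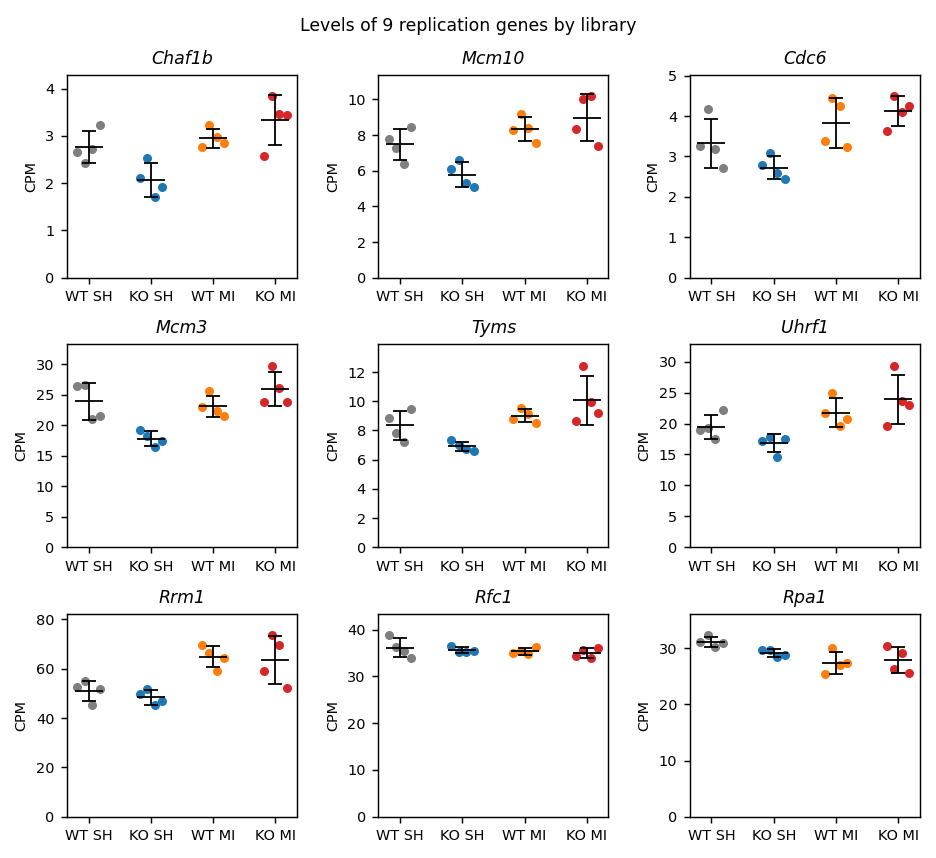
Level in CPM (vertical axes from 0) of 9 replication genes in each library by group. Points are libraries and bars the mean ± SD (n = 4); *Chaf1b*, *Mcm10*, *Cdc6*, *Mcm3*, *Tyms* and *Uhrf1* are lowest in KO SH, whereas *Rfc1* has group means of 34.995 to 36.1 and *Rpa1* is highest in WT SH.

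Summarised over the 47 genes, the library medians of log2(CPM + 0.5) relative to the WT SH mean were 0.01, 0.09, -0.11 and 0.00 in WT SH, -0.10, -0.10, -0.27 and -0.18 in KO SH, 0.03, 0.17, -0.04 and 0.01 in WT MI, and 0.03, 0.28 and 0.15 in KO MI 1, 2 and 3. KO MI 7 was at the WT SH mean, so the KO MI libraries overlapped those of WT SH and WT MI while all were above KO SH. By functional group, the median in KO MI against KO SH was 0.51 for chromatin, 0.44 for Okazaki maturation, 0.38 for fork protection, 0.27 for licensing and for nucleotide supply, 0.19 for helicase activation, 0.16 for the clamp and loader and 0.12 for single-strand binding.

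**Figure D4:**
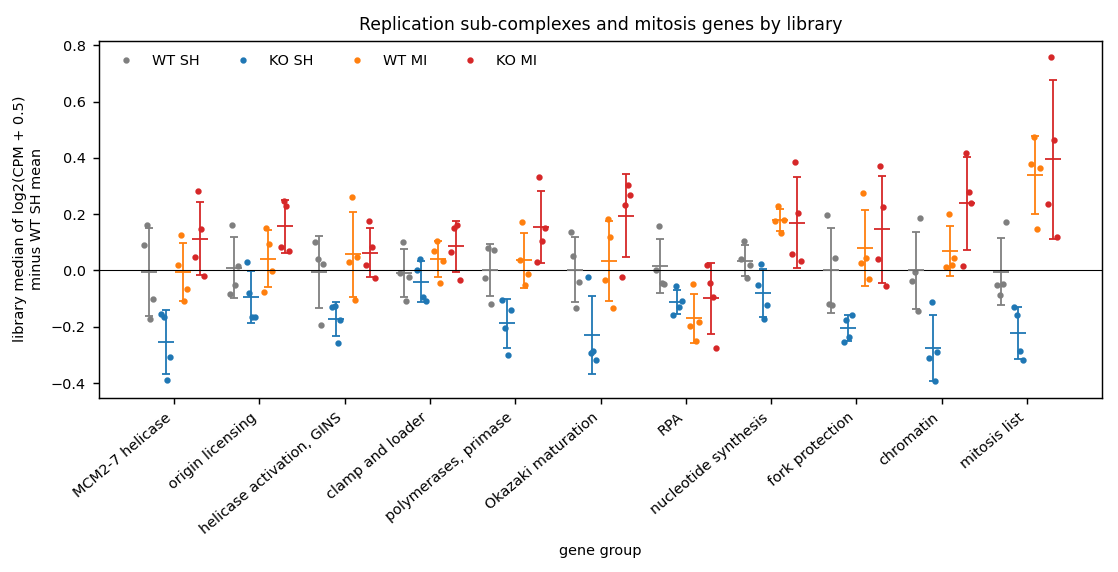
Library median of log2(CPM + 0.5) minus the WT SH mean for the 10 functional groups of replication genes and a list of mitosis genes. Points are libraries, and bars give the mean ± SD of the 4 libraries of a group; the KO SH libraries lie mostly below 0 and the mitosis list is highest in both MI groups.

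Around these 47, 68 other genes of replication and S-phase entry were examined. In KO MI against KO SH 10 of the 68 rose and none fell, against 5.31% of all genes that rose, with a median of 0.20. The 3 largest were *Ticrr*, an origin firing factor (0.81 ± 0.14), *E2f2*, an activating E2F factor (0.81 ± 0.18), and *Pclaf*, a PCNA-binding protein (0.72 ± 0.12), whose adjusted p in edgeR were 0.00243, 0.00929 and 0.00217. *E2f2* had 2.98, 3.37, 2.69 and 3.99 CPM in WT SH, 2.39, 1.92, 1.86 and 1.68 in KO SH, 2.88, 3.21, 3.22 and 3.34 in WT MI, and 2.95, 4.25, 4.18 and 2.30 in KO MI. The KO SH libraries were below all others of *E2f2* except KO MI 7, which lay just under KO SH 1. It was the only one of the 68 called in KO SH against WT SH, with a log2 value of -0.73 ± 0.18 (adjusted p 0.0218, edgeR). None of the 68 was called between WT MI and WT SH by edgeR or DESeq2. There 10 of the 68 had an unadjusted p under 0.05 in edgeR, against 16.5% of all genes. Of all genes, 5.01% and 2.78% were called in these comparisons. In KO MI against WT MI neither test called any of the 68 (edgeR called 1.73% of all genes), and their median was 0.05. For the interaction their median was 0.13, and 17 of 68 had an unadjusted p under 0.05 in edgeR (13.6% of all genes). There edgeR called none of the 68 (0.0248% of all genes), and DESeq2 called *E2f2*, with its share of all genes given above. Of 10 mitosis genes, all 10 rose in KO MI against KO SH (5.31% of all genes), with a median of 0.67, led by *Cdk1*, the mitotic kinase (0.78 ± 0.13), *Aurkb*, the kinase Aurora B (0.75 ± 0.16), and *Kif11*, a spindle motor (0.70 ± 0.13). In WT MI against WT SH the mitosis genes had a median of 0.37, where the replication genes had a median of 0.05. *Ccnb1*, cyclin B, alone was called (0.64 ± 0.14), but all 10 mitosis genes were above 0. Of these 10, 9 had an unadjusted p under 0.05 in edgeR (16.5% of all genes). The adjusted p alone was passed by 3, all higher (3.11% of all genes were higher by that rule). The mitosis genes had a median of -0.23 in KO SH against WT SH, with 9 of 10 below 0, and of 0.07 in KO MI against WT MI. None of the 10 passed the adjusted p in the interaction in edgeR, where 0.0248% of all genes did.

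Other cells than cardiomyocytes differed between KO MI and KO SH as well. Of all genes, 5.31% rose in this comparison and 7.42% changed in either direction. Of 8 macrophage markers 7 rose, their sum being 47.6 to 105 CPM in KO MI and 40.3 to 48.6 CPM in KO SH, ranges that overlapped. Erythroid markers rose in 5 of 6 genes tested, with sums of 751, 902, 585 and 283 CPM in KO MI 1, 2, 3 and 7 and 317 to 383 CPM in KO SH. Fibroblast markers rose in 3 of 8 (2820 to 3161 against 2054 to 2258 CPM), B cell markers in 3 of 5 and neutrophil markers in 3 of 4, whose sums reached at most 9.43 and 11.6 CPM in KO MI. Skeletal muscle markers rose in 5 of 6. Their sums were by far the highest in KO MI 2 and KO MI 7, up to 84.8 CPM, against 1.54 to 2.23 CPM in KO SH. Cardiomyocyte markers fell in 1 of 8 (27113 to 30014 against 29490 to 30329 CPM). No endothelial, thymocyte or lung marker was called, and the thymocyte sum was at most 2.24 CPM in KO MI. In each KO MI library 1 listed neutrophil marker and 1 listed B cell marker were at 0. Markers also differed in the other comparisons. In KO SH against WT SH 3 of 8 macrophage markers were lower and 2 of 4 neutrophil markers higher (5.01% of all genes called). In WT MI against WT SH 4 of 4 neutrophil markers were higher (2.78% of all genes called). In KO MI against WT MI 2 of 6 erythroid and 4 of 6 skeletal muscle markers were higher (1.73% of all genes called). The part of these cells in the replication results was not tested.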

How the data were processed

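RNA from the ventricles of 16 mice was sequenced as stranded total RNA libraries. The authors deposited RSEM expected counts per gene, aligned to GRCm39; the values as deposited are whole and not normalized. The study's methods name Skewer, STAR and RSEM, whereas the submitters' processing notes list cutadapt (version 3.4), HISAT2 (2.2.1) and RSEM (1.1.17), and the annotation release is not stated. RSEM shares reads that fit several genes, so counts of near copies are uncertain. GENCODE M39 named 47772 of 51912 identifiers and all 47 replication genes. The 47 genes, the other lists and the rules were chosen with earlier results of these data known.

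Genes whose counts summed to 10 or more in every group were tested in R (version 4.3.3) with edgeR (4.0.16): TMM normalization, a quasi-likelihood fit with a coefficient per group over all 16 libraries, and two-sided F-tests with Benjamini-Hochberg adjustment over all genes tested. A call needed an adjusted p below 0.1 with a log2 difference of 0.5 or more in size, after the study's thresholds. CPM used TMM-scaled library sizes, and scores a pseudocount of 0.5 CPM. Values per library are given for the gene with the highest mean CPM of each functional group. They are also given for calls in the knockout comparisons and the interaction. The genes with the 3 largest and 3 smallest absolute log2 values of both MI comparisons were included too. Values of *Mcm3*, *Exo1*, *Tyms*, *Pold3* and *E2f2* were added after they were seen. The sources do not say whether libraries came from separate litters, so p-values measure the spread between these libraries. No library was a copy of another of its own group by a chi-square test of counts. Libraries of different groups were not compared in this way. The fits were tested on simulated counts with larger log2 changes than those called in the replication genes. That test therefore does not bear on differences of the size found here. Alternatives were DESeq2 (version 1.42.0), other scalings and filters, a robust fit, the groups of a contrast alone, *Xist* as covariate, a replicate block and each library left out. At these depths the 3 counts taken as a floor come to 0.0577 to 0.0858 CPM.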

Additional observations from a re-analysis of the deposited data

Results flagged for a closer look

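Among 120 sets of 4 library values tested for an extreme library (by Dixon's gap), 2 passed, and chance passes about 1 in 20 such sets. In the Okazaki fragment maturation genes, KO SH 1 had a library median of -0.024 on the log2 scale against the WT SH mean, while the other 3 KO SH libraries had -0.32 to -0.28. In the chromatin genes, WT MI 2 had 0.199, while the other 3 WT MI libraries had 0.01 to 0.04.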

How the results depend on the processing

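For the 47 replication genes no median changed sign between settings. Without a minimum fold, the genes past the adjusted p were 26 higher in KO MI against KO SH, 2 higher in WT MI against WT SH, 11 lower in KO SH against WT SH and 1 lower (*Pold3*) in KO MI against WT MI. The interaction called 3 in DESeq2 (*Mcm3*, *Mcm5*, *Chaf1a*), 1 without the low count filter (*Mcm3*) and 2 with *Xist* as covariate (*Mcm5*, *Pola1*). With *Xist* as covariate KO SH against WT SH had a median of -0.26 and 1 gene lower (*Rpa3*). With library sizes from nuclear counts and no TMM, 1 gene was called higher in WT MI against WT SH (*Rrm2*). Chosen after seeing the data, leaving out KO MI 2 and KO MI 7 gave 2 calls in KO MI against KO SH (*Chaf1b*, *Mcm10*) and 2 in the interaction (*Mcm3*, *Mcm5*). Leaving out the 6 high-*Xist* libraries, also chosen after seeing the data, gave 1 lower in KO SH against WT SH (*Chaf1b*) and an interaction median of 0.38. The cause of these moves was not tested. With each library left out in turn, calls ranged from 3 (without KO MI 2) to 12 (without KO SH 2) in KO MI against KO SH, from 0 to 7 in the interaction (7 without KO MI 7), from 0 to 1 in WT MI against WT SH (*Rrm2*) and from 0 to 2 lower in KO SH against WT SH (*Chaf1b* and *Rpa3* without KO SH 2). A replicate block gave 6 calls in the interaction (*Chaf1a*, *Mcm10*, *Mcm3*, *Mcm5*, *Pole*, *Rpa3*) and 9 in KO MI against KO SH, without *Chaf1a* and with *Mcm5* and *Pole*. It called no replication gene in the other comparisons. The share of all genes called in the interaction also rose in some settings, above the 0.0248% of the fit to all libraries. For the settings of this paragraph the share of all genes is not given beside the counts, in KO MI against KO SH either. Counts under other settings are therefore not by themselves a result about the replication genes. The labels do not say that a replicate number marks a shared litter or day, and same-numbered libraries correlated at -0.06 to 0.11 (median 0.01, 21 pairs), so the numbers were not taken to pair them. The lowest count of 46 puts no replication gene near the floor of 3 counts, and 4 libraries a group limit what differences can be told from the spread.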
